A study of Mus musculus with 6 samples.

Results

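The annexin genes of a mouse lung cancer cell line were taken as the rows of the count files whose gene name was Anxa1, Anxa2, Anxa3, Anxa4, Anxa5, Anxa6, Anxa7, Anxa8 or Anxa11, which gave 9 of 34745 genes, each present in all 6 libraries. The line, 889, carries the strain label C57BL/6 and the tissue label lung, and the study describes it as lung adenocarcinoma. RNA was sequenced from 3 libraries of cells with a control sgRNA (sg-con) and 3 libraries of cells with a kiaa1522 sgRNA (sg-kiaa1522), made to ask how loss of KIAA1522 alters gene expression. Both groups express Cas9, the control sgRNA of the study's vectors is directed at EGFP, and the sources do not say which kiaa1522 sgRNA was used, whether the cells were a pool or a clone, or whether the libraries of a group came from separate cultures, so the p-values below measure only the spread between these libraries, which may be technical. Levels are given as CPM, counts scaled to a common library size after TMM normalization.

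The mRNA of the targeted gene was looked at first. Kiaa1522, listed as C77080, had 2214, 2404 and 2064 counts in the sg-con libraries and 2554, 3726 and 3667 counts in the sg-kiaa1522 libraries, a log2 fold change of 0.73 (SE 0.0569). Its mRNA was therefore higher, not lower, in the libraries labelled sg-kiaa1522, and every direction below refers to the labels. Counts of mRNA do not measure the protein, and the study describes these cells as depleted of KIAA1522. The libraries held 12220001 to 18609376 counts. Of the cell type markers, Krt8, Krt18, Krt19 and Cdh1 were well counted, and Epcam was at 0 counts in every library. Among 7 lung markers, Nkx2-1 had 970, 1096 and 227 counts in sg-con and 132, 174 and 671 in sg-kiaa1522, so it differed widely between libraries of a group. Sftpb had 296, 445 and 399 counts against 149, 235 and 265. Scgb1a1 had 293, 31 and 42 against 21, 28 and 75, and Sftpc 110, 20 and 45 against 8, 15 and 25, both highest in sg-con replicate 1. Sftpa1, Napsa and Foxj1 had at most 29. The leukocyte marker Ptprc had 1 to 14 counts and the endothelial marker Cdh5 had 0 to 5, while the fibroblast-associated collagen gene Col1a2 had 1965 to 7780. Bulk RNA cannot tell fewer cells of a type from less RNA per cell.

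Annexins are calcium-dependent phospholipid-binding proteins. A conserved core of repeats attaches to acidic lipids on the cytosolic face of membranes when calcium rises, and a variable N-terminal tail binds partner proteins, many of them of the S100 family. They are known for roles in vesicle traffic, membrane repair and the control of inflammation and coagulation, and several are abundant in lung epithelium and in carcinomas.

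The 9 annexins were put forward with their values in this same contrast known, so those values, and the counts of calls taken from the fit over all tested genes, are given as a description and not as a test of the members. The 250 bases before the start sites are shown first for Anxa8 and Anxa2, the members with the largest differences, and for Anxa4 and Anxa11, which differed little, so that the sequences at which these genes start can be read beside their levels. They were copied from the RefSeq promoter table on GRCm38.p6, in which 7 of the 9 annexins were matched and Anxa3 and Anxa6 were not. The windows are chr14:34085729-34085978 (plus strand) for Anxa8, chr9:69453433-69453682 (plus strand) for Anxa2, chr6:86793585-86793834 (minus strand) for the outer of the listed start sites of Anxa4, and chr14:25841905-25842154 (plus strand) for Anxa11. Each is written 5′ to 3′ on the strand of its gene and ends at the base before the start site. Capitals mark matches, on either strand, to 4 motifs. An AP-1 site was searched as TGANTCA, where N is any base. A GC box, to which Sp1 and related factors bind, was searched as GGGCGG. The core promoter element known as the TATA box was searched as TATAAA, and the NF-kB site by its consensus.
Anxa8: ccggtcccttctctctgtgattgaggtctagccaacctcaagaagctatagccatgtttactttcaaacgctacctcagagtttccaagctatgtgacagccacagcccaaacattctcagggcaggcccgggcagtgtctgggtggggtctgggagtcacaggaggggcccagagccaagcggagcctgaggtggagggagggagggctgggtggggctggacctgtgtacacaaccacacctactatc
Anxa2: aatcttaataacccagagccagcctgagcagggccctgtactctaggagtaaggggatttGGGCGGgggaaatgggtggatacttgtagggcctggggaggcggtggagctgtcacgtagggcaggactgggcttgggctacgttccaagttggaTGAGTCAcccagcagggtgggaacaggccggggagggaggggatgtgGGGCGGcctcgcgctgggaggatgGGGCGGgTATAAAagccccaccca
Anxa4: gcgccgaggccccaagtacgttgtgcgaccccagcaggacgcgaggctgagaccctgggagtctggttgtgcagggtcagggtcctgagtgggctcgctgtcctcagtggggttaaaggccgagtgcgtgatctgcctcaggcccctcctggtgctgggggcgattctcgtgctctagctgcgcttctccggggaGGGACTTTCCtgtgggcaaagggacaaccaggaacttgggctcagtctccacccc
Anxa11: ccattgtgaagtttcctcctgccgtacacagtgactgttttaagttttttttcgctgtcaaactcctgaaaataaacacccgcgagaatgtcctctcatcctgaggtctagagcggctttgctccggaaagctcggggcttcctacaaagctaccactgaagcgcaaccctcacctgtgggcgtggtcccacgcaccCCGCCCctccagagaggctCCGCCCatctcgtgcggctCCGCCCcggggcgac

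The Anxa8 window held none of these letters. The Anxa2 window held 1 AP-1 match that begins 95 bases before the start site, 3 GC boxes and a TATA box. The start sites are those of the RefSeq table, and in the GENCODE annotation used for positions Anxa2 begins at 69453620, inside this window. The GC boxes that begin at -48 and -24 and the TATA box at -17 lie after that position. The Anxa4 window held 1 NF-kB match that begins 55 bases before the start site, and the Anxa11 window held 3 GC boxes. No matches overlapped each other in these windows. Among the 32851 promoters of the table, 6.75% held an AP-1 match, 3.90% an NF-kB match, 32.7% a GC box and 12.4% a TATA box. The remaining windows were not printed. In them Anxa1 had a TATA box, Anxa7 had GC boxes, and Anxa5 and the inner listed start site of Anxa4 had no match. The Anxa1 window, too, lies within the span of its gene in GENCODE. A match is only a run of letters, and nothing was measured at these sites.

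In the fit over all tested genes (edgeR's quasi-likelihood test, adjusted p of at most 0.05), 6 of the 9 annexins were called lower in the libraries labelled sg-kiaa1522, 0 were higher and 3 were not called (Anxa4, Anxa7 and Anxa11). The number higher was also 0 at an unadjusted p of 0.05 and with DESeq2. Anxa8 and Anxa2 also passed a log2 fold change of -1. Over all 10046 tested genes, 26.3% were called lower and 26.3% higher, and 4.34% and 2.74% were called past a log2 fold change of 1 in size. In 7 of the 9 the groups did not overlap, with every sg-kiaa1522 library below every sg-con library, which held for 31.1% of tested genes, while 30.6% of tested genes and 0 annexins did not overlap in the other direction. Because the members were chosen with these values in view, nothing is read from the counts. The median log2 fold change was -0.27 for the annexins and -0.0067 for all tested genes.

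**Figure D1:**
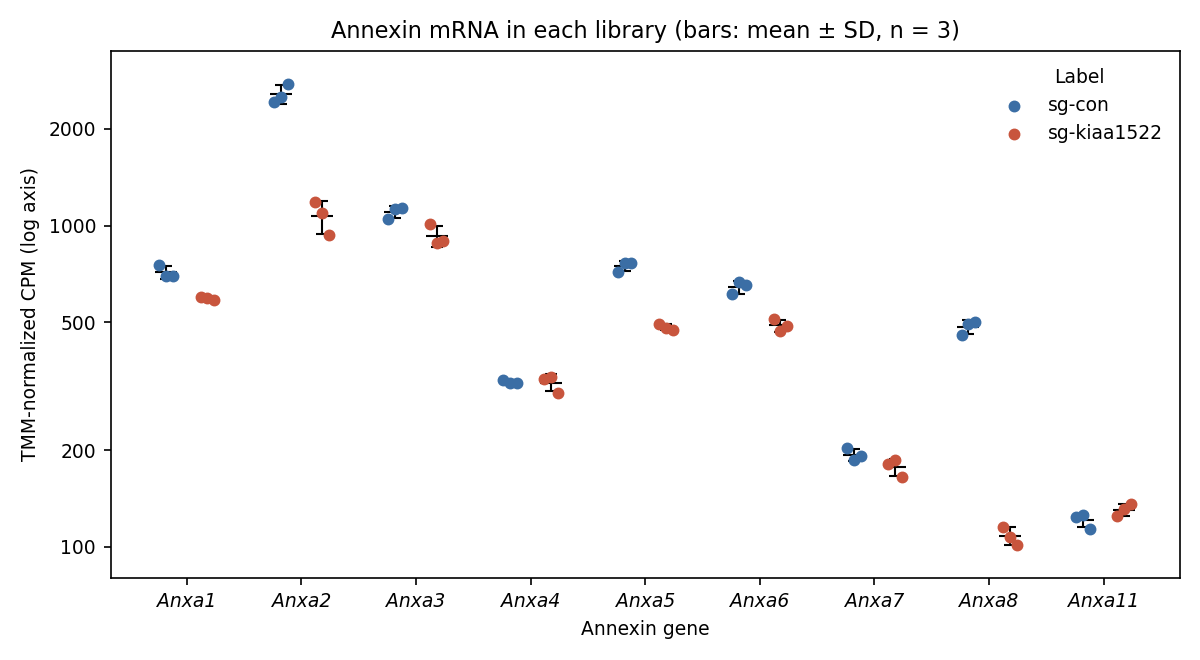
Level of each annexin mRNA in each library, as counts scaled to library size after TMM normalization (CPM, log axis), with points for libraries and black bars for the mean and SD of 3 libraries per group. Anxa8 is near 483 CPM in sg-con and 108 CPM in sg-kiaa1522, Anxa2 is near 2566 and 1069, and the points of Anxa4 and Anxa11 overlap between groups.

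Anxa8 differed most. This annexin of stratified and other epithelia, first isolated as a vascular anticoagulant protein, lies on chromosome 14 from 34085981 to 34100571 (plus strand, GRCm38). Its level was 455, 494 and 500 CPM in the sg-con libraries and 115, 107 and 101 CPM in the sg-kiaa1522 libraries. The lowest sg-con library was thus far above the highest sg-kiaa1522 library. The means were 483 ± 24.3 and 108 ± 7.09 CPM (SD, n = 3 each), a 4.47-fold lower level and a log2 fold change of -2.16 (SE 0.0739). At least 1401 counts stood behind each value.

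Anxa2 was the most abundant annexin. It forms a heterotetramer with S100A10 under the plasma membrane and serves at the cell surface as a co-receptor for plasminogen and its tissue activator. It lies on chromosome 9 from 69453620 to 69491795. Its level was 2423, 2513 and 2763 CPM in sg-con and 1182, 1092 and 933 CPM in sg-kiaa1522. Again the groups stood apart, and the spread was the widest of the 9 in both groups, with coefficients of variation of 6.86% and 11.8%. The log2 fold change was -1.26 (SE 0.0967), a 2.40-fold lower level. Without sg-kiaa1522 replicate 3, its lowest library, it was -1.17.

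Anxa5 and Anxa6 came next. Anxa5, the phosphatidylserine binder used as a probe for apoptotic cells, had 716, 762 and 765 CPM in sg-con and 493, 481 and 474 CPM in sg-kiaa1522. The log2 fold change was -0.63 (SE 0.0547), and the sg-kiaa1522 mean was 64.6% of the sg-con mean. Anxa6, the annexin with an additional copy of the core, linked to endosomes and cholesterol transport, had 610, 668 and 651 CPM against 510, 469 and 486 CPM, a log2 fold change of -0.40 (SE 0.0617). In both genes every sg-kiaa1522 library was below every sg-con library, and the gap between groups was wider for Anxa5.

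Anxa1 and Anxa3 had smaller differences. Anxa1, a glucocorticoid-induced protein whose N-terminal tail is a ligand of formyl peptide receptors, had 756, 695 and 696 CPM in sg-con and 600, 595 and 585 CPM in sg-kiaa1522. Its log2 fold change was -0.27 (SE 0.0569), with no overlap between the groups. Anxa3, known from myeloid and epithelial cells, had 1051, 1123 and 1137 CPM against 1010, 885 and 894 CPM. The highest sg-kiaa1522 library of Anxa3 came close to the lowest sg-con library, and the log2 fold change was -0.25 (SE 0.0698). Anxa3 was the only member of the 9 whose call was lost in any fit that left out a library, namely without sg-con replicate 2 or 3 or without sg-kiaa1522 replicate 2 or 3, in which its log2 fold change was between -0.25 and -0.21.

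The 3 other annexins were close between the groups. Anxa7 (synexin), which has a long N-terminal tail and promotes the fusion of secretory granules, had 203, 186 and 191 CPM in sg-con and 181, 186 and 165 CPM in sg-kiaa1522, a log2 fold change of -0.13 (SE 0.0696). Its lowest sg-con library and its highest sg-kiaa1522 library were both at 186 CPM after rounding. Anxa11, which also has a long tail and tethers RNA granules to lysosomes, had 123, 125 and 114 CPM against 125, 131 and 135 CPM, a log2 fold change of 0.11 (SE 0.0657). Anxa4, an annexin of secretory epithelia, had 331, 323 and 323 CPM against 332, 338 and 302 CPM, a log2 fold change of -0.0071 (SE 0.0627). The ranges of Anxa4 and Anxa11 overlapped.

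The files list 3 more annexins, all low. Anxa10, an annexin of gastric epithelium, had 21, 18 and 4 counts in sg-con and 129, 195 and 137 counts in sg-kiaa1522, so that every sg-kiaa1522 library was above every sg-con library. It passed the filter of more than 500 counts over the 6 libraries only through the group in which it was high, and did not pass it with any library left out, so no test is given. At 9.78 ± 1.48 CPM in sg-kiaa1522 (SD, n = 3) it was far below each of the 9. Anxa9 had 87, 121 and 99 counts against 40, 72 and 60 and was not tested, and Anxa13 had 5 to 10 counts in each library.

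Levels can be set between genes only per length, so length-scaled levels (TPM) were computed from the counts and the summed exon length of each gene. In sg-con the order was Anxa2 (1763 ± 98.5 TPM), Anxa5 (1078 ± 16.0), Anxa3 (777 ± 16.3), Anxa8 (658 ± 19.2), Anxa1 (631 ± 45.3), Anxa6 (562 ± 14.1), Anxa4 (180 ± 6.76), Anxa7 (82.8 ± 5.596) and Anxa11 (74.9 ± 4.53), each as mean ± SD over 3 libraries. Of these neighbours, Anxa8 and Anxa1, and Anxa7 and Anxa11, had overlapping ranges, and the other pairs did not. In sg-kiaa1522 the order was Anxa2 (783 ± 84.1 TPM), Anxa5 (743 ± 12.8), Anxa3 (698 ± 51.5), Anxa1 (557 ± 5.08), Anxa6 (456 ± 21.99), Anxa4 (191 ± 8.65), Anxa8 (157 ± 9.07), Anxa11 (86.3 ± 4.50) and Anxa7 (80.7 ± 3.80). Here Anxa2 and Anxa5, Anxa5 and Anxa3, and Anxa11 and Anxa7 overlapped. Anxa8 thus moved from 4 to 7 in the order, and Anxa2 no longer stood apart from Anxa5. Among 10029 tested genes with a length, Anxa8 was at rank 141 by TPM in sg-con and 752 in sg-kiaa1522, and Anxa2 was at rank 56 and 113.

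**Figure D2:**
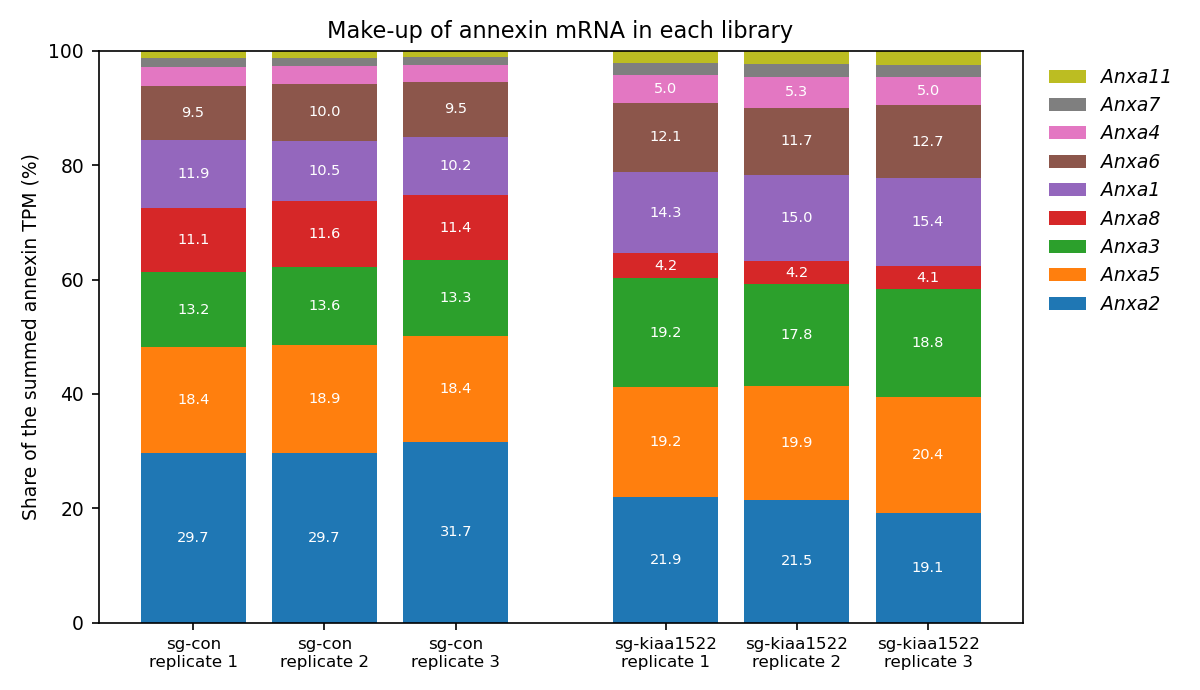
Share of each annexin in the summed TPM of the 9 annexins, in percent, as 1 stacked bar per library. Anxa2 (bottom) makes up 30.3% on average in the sg-con libraries and 20.8% in the sg-kiaa1522 libraries, and Anxa8 (red) 11.3% and 4.19%.

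The sum over the 9 annexins was 5751, 5742 and 5928 TPM in sg-con and 3937, 3680 and 3638 TPM in sg-kiaa1522. Their share of all counts was between 0.6645% and 0.718% in sg-con and between 0.404% and 0.452% in sg-kiaa1522. Without Anxa2 and Anxa8, the remaining 7 summed to 3386 ± 17.3 TPM and 2812 ± 87.4 TPM (SD, n = 3 each), and the ranges stood apart. These 7 were also chosen with their values in this contrast known, and Anxa1, Anxa3, Anxa5 and Anxa6 among them were called lower. Their sum is therefore a description, and nothing is read from it. The share of Anxa2 in the annexin sum was 30.3% ± 1.14 in sg-con and 20.8% ± 1.51 in sg-kiaa1522, and that of Anxa8 was 11.3% ± 0.247 and 4.19% ± 0.0639. The share of Anxa3 was 13.4% ± 0.191 and 18.6% ± 0.700, although its own level was lower in sg-kiaa1522. Exact shares depend on the length used, and with the mean transcript length Anxa8 was 5.10% and 1.81% of the sum.

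The spread of the annexins within groups was small. Their biological coefficients of variation, which are the spread between libraries beyond counting noise and were not used to choose the members, lay between 0.0702 (Anxa5) and 0.097 (Anxa2), with a median of 0.0773. The median over all tested genes was 0.105, and over the 3919 tested genes with 1000 to 50000 mean counts it was 0.0888.

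The partners of the annexins were described next. The S100 proteins are small calcium sensors that bind annexin tails. Of 8 listed binding partners, 7 were tested, 5 were lower and 0 were higher (0 also at an unadjusted p of 0.05 and with DESeq2), against 26.3% of all tested genes in each direction, and their median log2 fold change was -0.89. This list and the pathway lists below were written with results of these data known, so the counts are a description. For the same reason the adjusted p-values of listed genes are those of the fit over all tested genes, and are not independent tests of the lists.

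S100a10 (p11), the partner of Anxa2, had 342, 385 and 439 CPM in sg-con and 215, 196 and 195 CPM in sg-kiaa1522, a log2 fold change of -0.94 (SE 0.0976, adjusted p = 0.00025, edgeR). S100a11, the partner of Anxa1, had 240, 301 and 319 CPM against 164, 142 and 159 CPM, a log2 fold change of -0.89 (SE 0.115, adjusted p = 0.00065). Both were lower in every sg-kiaa1522 library. S100a4, a metastasis-associated protein that binds Anxa2, had 655, 601 and 739 CPM against 189, 166 and 122 CPM, a log2 fold change of -2.06 (SE 0.161, adjusted p = 8.9e-05, edgeR). S100a6 (calcyclin), which binds Anxa11 among others, had 901, 1283 and 1300 CPM against 769, 635 and 632 CPM, a log2 fold change of -0.77 (SE 0.15, adjusted p = 0.0039, edgeR). All 4 of these S100 genes lie on chromosome 3, whose tested genes other than Anxa5 had a median log2 fold change of -0.12. They are close neighbours there, with S100a4 and S100a6 starting at 90603771 and 90612882, and S100a11 and S100a10 at 93520488 and 93555080. No median was taken near them, and the part of their shared place in these values was not tested. S100a4 fell most of the 4, and sg-con replicate 1 was the lowest control library for S100a10, S100a11 and S100a6.

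Sri (sorcin), a calcium-binding partner of Anxa7, had 89.0, 108 and 95.9 CPM against 44.3, 38.7 and 40.2 CPM, a log2 fold change of -1.25 (SE 0.0959, adjusted p = 8.7e-05, edgeR). Pdcd6 (ALG-2), which binds Anxa7 and Anxa11, did not pass (log2 fold change -0.078, SE 0.0687, adjusted p = 0.37, edgeR). Ahnak, a giant scaffold bound by the Anxa2-S100A10 complex, had 2132, 1635 and 1547 CPM against 2018, 1998 and 2078 CPM and did not pass (log2 fold change 0.20, adjusted p = 0.19, edgeR), but without sg-con replicate 1 it did, at 0.34 (adjusted p = 0.0011). Dysf (dysferlin), a membrane repair protein that binds Anxa1 and Anxa2, was under the filter, with 119, 99 and 102 counts against 10, 12 and 14. It passed when genes with at least 1 count were tested, so that 6 of the 8 partners were then lower.

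**Figure D3:**
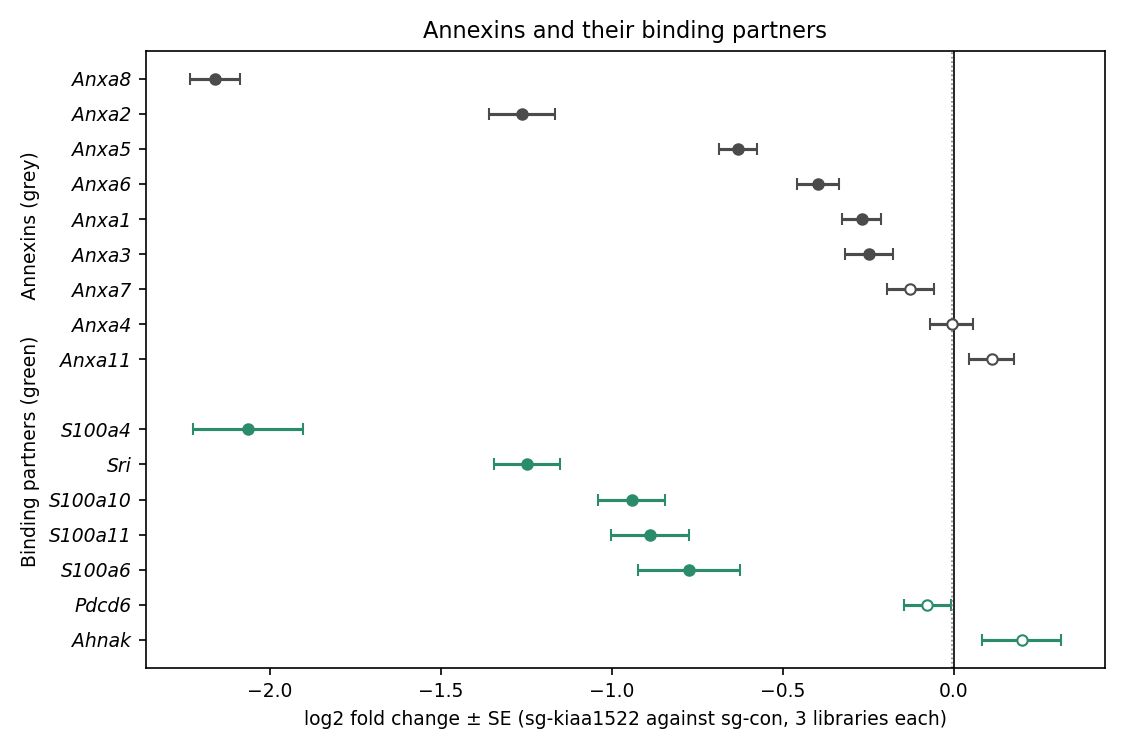
Log2 fold change of the 9 annexins (grey) and 7 tested binding partners (green), sg-kiaa1522 against sg-con, with bars for the standard error. Filled points passed an adjusted p of at most 0.05, and the dotted line is the median of all tested genes at -0.0067. Anxa8 at -2.16 and S100a4 at -2.06 lie farthest to the left, and Ahnak at 0.20 farthest to the right.

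Within pairs the partners were not lowered to the same degree. The log2 ratio of Anxa2 to S100a10 TPM was 1.20, 1.09 and 1.03 in sg-con and 0.83, 0.85 and 0.64 in sg-kiaa1522. The ranges stood apart, with the ratio 0.33 lower in sg-kiaa1522. That of Anxa1 to S100a11 was -0.85, -1.30 and -1.39 in sg-con and -0.64, -0.44 and -0.63 in sg-kiaa1522. The log2 ratio of Anxa7 to Sri was 0.88, 0.48 and 0.69 against 1.72, 1.96 and 1.73, so Anxa7 mRNA was in larger excess over Sri mRNA in sg-kiaa1522, with Sri lower and Anxa7 close between the groups. No test was made of these ratios, since the annexin of each pair was chosen from this contrast and the partners were listed with results of these data known.

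Receptors and pathways in which annexins take part were listed too. Over 6 lists, binding partners included, 47 genes were listed and 39 tested, of which 12 were lower, 9 higher and 18 not called, with a median log2 fold change of -0.066. Beside the 26.3% of all tested genes called in each direction, these counts, and those of the single pathway lists that follow, are near the background and are no result about the lists. The formyl peptide receptors that bind Anxa1 were barely counted. Fpr3 had 0 counts in every library, which allows at most 0.245 CPM in the shallowest library by counting error alone, Fpr1 had 1 count in all and Fpr2 had 2 to 11 counts. Pla2g4a, the cytosolic phospholipase A2 that Anxa1 is known to inhibit, had 145, 129 and 121 CPM in sg-con and 199, 203 and 215 CPM in sg-kiaa1522. It rose by a log2 fold change of 0.64 (SE 0.0795, adjusted p = 0.00054, edgeR), with no overlap between groups.

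Plasminogen activation takes place on cell-surface receptors that include the Anxa2 complex. Of 6 genes of the list that passed the filter, 1 was lower and 2, Plaur and Serpinb2, were higher (26.3% of all tested genes in each direction). Plaur, the urokinase receptor, had 79.1, 74.2 and 70.1 CPM against 119.5, 119 and 122 CPM (log2 fold change 0.69, SE 0.0667, adjusted p = 0.00019, edgeR). Serpinb2, an inhibitor of urokinase, had 19, 9 and 17 counts against 100, 189 and 200. It passed the filter only through the group in which it was high, and not without any 1 of the sg-kiaa1522 libraries, so no test is given. Its place among the higher genes of this list and of the 6 lists rests on that filter, and nothing is read from it. Plau, urokinase itself, was the list's lower gene (log2 fold change -0.34, adjusted p = 0.044, edgeR). It is on chromosome 14, and its call was lost in 5 of the 6 fits that left out 1 library, with adjusted p of 0.069 to 0.14. Plat and Plgrkt did not pass, though Plgrkt passed without sg-kiaa1522 replicate 1 (adjusted p = 0.041). Plg had at most 2 counts.

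Among 8 glucocorticoid-responsive genes, the class to which Anxa1 belongs, 2 were lower and 3 higher (26.3% of all tested genes in each direction). Tsc22d3 (GILZ) and Zfp36 fell, with log2 fold changes of -0.50 (SE 0.0832, adjusted p = 0.002, edgeR) and -0.62 (SE 0.0792, adjusted p = 0.00063). Sgk1, Klf9 and Per1 rose, with log2 fold changes of 0.75 (SE 0.0645), 1.05 (SE 0.177) and 0.36 (SE 0.104) and adjusted p of 0.00012, 0.0021 and 0.021 (edgeR). The call of Per1 was lost in 4 of the 6 fits that left out 1 library (adjusted p of 0.057 to 0.078). Nr3c1, the glucocorticoid receptor, had a log2 fold change of 0.057 with an SE of 0.261 and Fkbp5 one of -0.025, neither passing. Dusp1 was at the threshold (log2 fold change 0.37, adjusted p = 0.050) and passed with DESeq2 (adjusted p = 0.016) and without sg-kiaa1522 replicate 2 (adjusted p = 0.017). With edgeR it also passed under RLE normalization (0.048), with all genes of at least 1 count (0.023) and with edgeR's own filter (0.041). It did not pass with library size alone (0.061), with the replicate block (0.081) or without any other library.

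Phosphatidylserine, the lipid that Anxa5 binds, reaches the outer leaflet through scramblases and is returned by flippases. Of 7 tested genes, 1 was lower and 2 were higher (26.3% of all tested genes in each direction). The scramblase Ano6 (log2 fold change 0.39, SE 0.0779, adjusted p = 0.0043, edgeR) and Plscr1 (0.43, SE 0.0828, adjusted p = 0.0038) rose, and Plscr3 fell (-0.42, SE 0.101, adjusted p = 0.011). The flippase genes Atp11a and Tmem30a did not pass, though Atp11a did without sg-con replicate 3 (log2 fold change -0.42, adjusted p = 0.046). Xkr8, the caspase-activated scramblase, did not pass either.

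Of the 10 tested genes of plasma membrane repair, 3 were lower and 1 was higher (26.3% of all tested genes in each direction). Capn2, a calpain that cleaves annexins and ferlins, had 497, 479 and 482 CPM in sg-con and 256, 257 and 254 CPM in sg-kiaa1522 (log2 fold change -0.93, SE 0.0514, adjusted p = 2.7e-05, edgeR). Its regulatory subunit Capns1 fell by 0.78 on the log2 scale (adjusted p = 0.017), with sg-con replicate 3 the highest library at 358 CPM. Without that library it was at -0.48 (adjusted p = 0.0081, edgeR), and it lost its call without sg-kiaa1522 replicate 3 (adjusted p = 0.060). Chmp2a, of the ESCRT-III complex that closes small wounds, fell by 0.58 (SE 0.117, adjusted p = 0.0048, edgeR). Myof (myoferlin) rose from 1117 ± 104.5 to 1647 ± 41.0 CPM (SD, n = 3 each), a log2 fold change of 0.56 (adjusted p = 0.00074, edgeR). Without sg-con replicate 1, Capn1 (adjusted p = 0.036) and Chmp4b (adjusted p = 0.0045) also passed, both lower.

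Anxa7, Anxa8 and Anxa11 lie on chromosome 14, at 20455260 to 20480133, 34085981 to 34100571 and 25842156 to 25886804. The other 340 tested genes of this chromosome had a median log2 fold change of -0.38, the lowest of the chromosomes, and the chromosome medians of the 6 other annexins lay between -0.12 (Anxa5) and 0.18 (Anxa1). The shift was even over libraries, with the chromosome 14 median at -0.37 to -0.36 in each sg-kiaa1522 library after centring on the sg-con mean. Relative to their chromosome, Anxa8 was 1.78 lower, while Anxa7 and Anxa11 were 0.25 and 0.49 higher on the log2 scale. The part of this shift in the annexin values was not tested. Within 5 Mb of Anxa8, 41 other genes were tested, with a median of -0.43, and 0 of them were lower than Anxa8. Within 5 Mb of Anxa2, on chromosome 9, 51 genes had a median of 0.11, and 4 of them were lower than Anxa2.

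**Figure D4:**
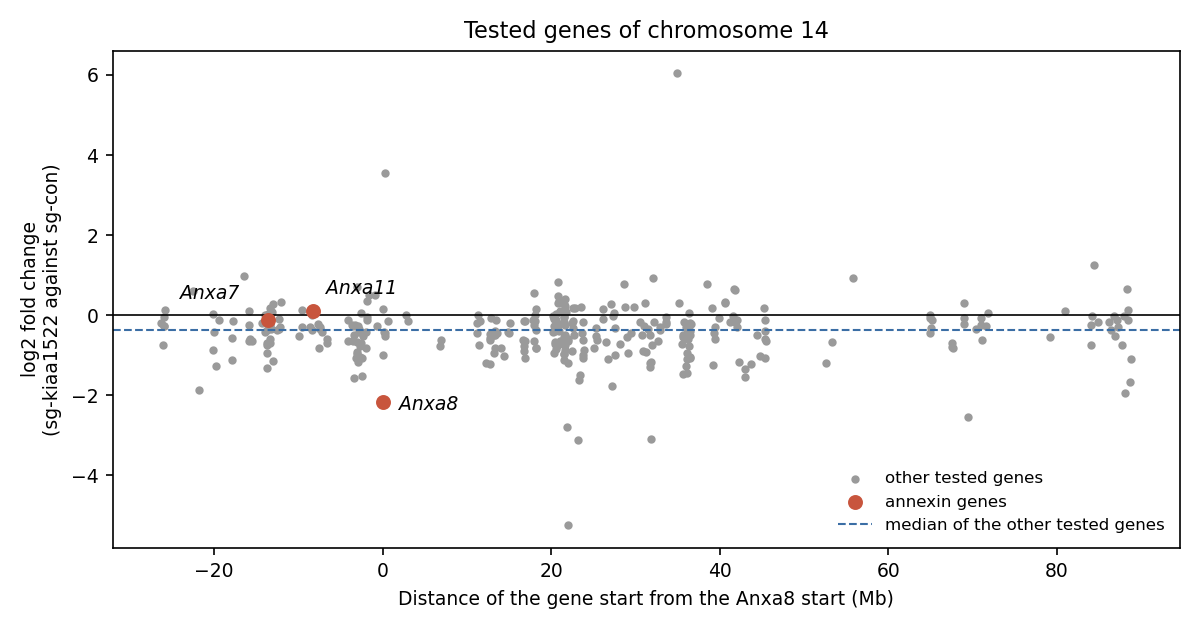
Log2 fold change (sg-kiaa1522 against sg-con) of each tested gene of chromosome 14 against the distance of its start from the start of Anxa8, in Mb. The grey points centre on the dashed median at -0.38, Anxa8 is at -2.16, and Anxa7 at -0.13 and Anxa11 at 0.11 lie above the median.

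The nearest tested genes did not move as the annexins did in each case. Npy4r, 43.4 kb after Anxa8, was lower (log2 fold change -1.01, SE 0.0891, adjusted p = 0.00014, edgeR), and Mapk8 on the other side was lower by less (-0.27, SE 0.0938, adjusted p = 0.046). Sncg, 0.284 Mb from the start of Anxa8 and named after its value was seen, was at 3.54. Beside Anxa2, Ice2 was lower (-0.30, adjusted p = 0.020, edgeR) and Bnip2 higher (0.22, adjusted p = 0.047). Gm2a, 64.7 kb after Anxa6, was lower (-1.61, SE 0.0826, adjusted p = 2e-05, edgeR) by more than Anxa6 itself. Aldh1a1, 102 kb after Anxa1, was higher (0.40, SE 0.106, adjusted p = 0.016, edgeR), and the 29 tested genes within 5 Mb of Anxa1 had a median of 0.40.

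Exon length also went with the fold changes over all tested genes. The median was -0.25 among the 261 tested genes of up to 1000 exon bases, -0.00039 between 4000 and 6000, and 0.19 above 10000. Anxa8 (1880 bases) and Anxa5 (1777 bases) are the shortest of the 9, and Anxa7 (5991), Anxa4 (4645) and Anxa11 (4135), which were not called, are the longest. With the length trend subtracted, Anxa8 was at -2.003, Anxa2 at -1.23, Anxa5 at -0.46, Anxa6 at -0.31, Anxa3 at -0.21 and Anxa1 at -0.18. S100a10, S100a11 and S100a6 were at -0.72, -0.61 and -0.57. The part of exon length in these values was not tested. Within the sg-con group, replicate 1 stood apart on this measure, with genes of up to 1000 bases 0.15 lower and genes above 10000 bases 0.15 higher than the group mean (median, log2), and without it Anxa8 was at -2.21, Anxa2 at -1.31 and Anxa5 at -0.67.

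**Figure D5:**
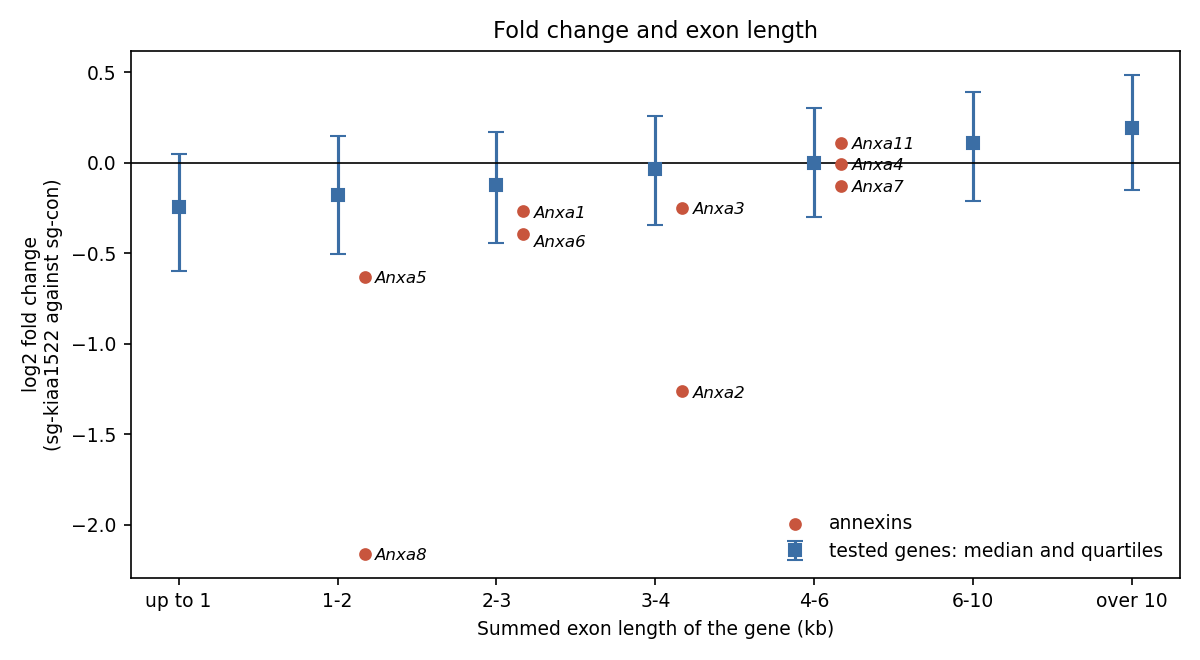
Log2 fold change (sg-kiaa1522 against sg-con) by summed exon length, with squares for the median and bars for the quartiles of the tested genes in each length class, and red points for the annexins. The class medians run from -0.25 to 0.19, and Anxa8 and Anxa2, at -2.16 and -1.26, lie below the lower quartiles of their classes at -0.50 and -0.34.

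Markers of cell types were set beside these values. All 4 tested epithelial markers were called lower (26.3% of all tested genes), from Krt18 at -0.19 to Cdh1 at -1.45. Krt18 was at the threshold (adjusted p = 0.05, edgeR). Its groups overlapped, with sg-con replicate 1 at 1947 CPM and sg-kiaa1522 replicate 1 at 1953 CPM. The summed CPM of the list of 8 was 3811 to 4575 in sg-con and 3218 to 3498 in sg-kiaa1522, and Epcam, Cldn4, Cldn7 and Krt7 had at most 3 counts. Of the lung list of 7, 2 were tested. Sftpb was lower (log2 fold change -0.67, SE 0.166, adjusted p = 0.012, edgeR). Nkx2-1 was not called (-1.09, SE 0.673, adjusted p = 0.21, edgeR), and its groups overlapped. Of the fibroblast-associated list of 7, the 2 tested genes, Col1a2 and Pdgfrb, were lower, with a summed CPM of 467 to 486 against 167 to 198, and the defining genes Dcn and Pdgfra had at most 7 counts. The immune list of 8 summed to 2.37 to 6.03 CPM and 11.2 to 13.97 CPM. Cd68 made up most of the higher sum, with 19 to 23 counts in sg-con and 122 to 235 in sg-kiaa1522. It passed the filter only through the latter. Lyz2 went the other way, with 63, 18 and 37 counts against 11, 17 and 16, and Ptprc had 14, 1 and 6 against 1, 2 and 2. Itgam, Csf1r and Cd79a had at most 5 counts, and Cd3e and Ncr1 were at 0. The endothelial list of 6 summed to 3.66 to 5.45 and 9.42 to 11.8 CPM. Most of this was Vwf (40 to 66 counts against 128 to 189, past the filter only through sg-kiaa1522), while Cdh5, Kdr and Tek had 0 to 5 counts, Pecam1 had 8 to 21 and Emcn was at 0. The part of these markers in the annexin values was not tested.

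Some exon bases were shared with other genes. In the GENCODE M21 annotation Anxa2, Anxa4 and Anxa11 share 2.63%, 1.61% and 2.73% of their exon bases with a gene on the opposite strand (Gm16144, Gm44036 and Anxa11os), and Anxa3 shares 3.07% with Gm42603 on its own strand. The sources do not state whether the counting used strand, so reads in the stretches shared with the opposite strand could not be assigned to 1 gene. For the stretch that Anxa3 shares with Gm42603, strand would not separate the reads in either case.

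For the 3 annexins with the largest differences, the tested genes with the closest pattern over the 6 libraries were looked up by the root mean square difference of log2 CPM after the sg-con mean was subtracted. For Anxa8 these were Cxcl16 (0.114), Map6 (0.116) and Mturn (0.134). For Anxa2 they were Adgrg1 (0.0523), Vps45 (0.0561) and S100a13 (0.0603), the last another S100 gene. For Anxa5 they were Stk25 (0.0130), H6pd (0.0228) and Cactin (0.0304). None of the 9 lies on the chromosome of its annexin. These genes were picked by likeness in the same libraries.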

How the data were processed

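RNA of 3 sg-con and 3 sg-kiaa1522 libraries was measured, and groups and replicate numbers came from the labels. The authors trimmed adaptors and filtered rRNA with Seqtk, mapped reads to GRCm38 with HISAT2 2.0.4 and counted uniquely mapped fragments with StringTie 1.3.0, and the deposited values are raw counts per Ensembl gene, whole numbers without normalization. The annotation release and the strand setting are not given in the sources used here. The annexins and the gene lists were chosen with earlier results of these data known.

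The 10046 genes whose counts summed to over 500 were tested with edgeR 4.0.16 (TMM, quasi-likelihood test, Benjamini-Hochberg over all tested genes, call at 0.05, in R 4.3.3), as the filter and tool of the study's methods. Standard errors were the log2 fold change divided by the square root of F. Positions, exon lengths and GC content came from GENCODE M21, matched for 34344 of 34745 gene identifiers, and TPM used the summed exon length. Trends on exon length and GC were loess fits. Named genes were all annexins, the genes of the lists, the nearest tested gene on each side, the 3 genes closest in pattern to the 3 annexins with the largest change, and C77080. Alternatives were other normalizations, DESeq2 1.42.0, other filters and thresholds, a replicate block, each library left out, and the removal of chromosome medians, and, added after the data were seen, of the length or GC trend. No 2 libraries of a group were repeats (chi-square per degree of freedom of at least 12.3). The test was checked on simulated data with few changed genes and no trend on exon length or chromosome, so the check does not cover those trends. Depth of 12220001 to 18609376 counts puts 3 counts at 0.161 to 0.245 CPM, for counting error only. Protein sequences were not used here, so the planned comparison of annexin proteins was not run. Some genes of the lists are counted but not reported here by name.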

Additional observations from a re-analysis of the deposited data

How the results depend on the processing

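The direction of the 6 annexins called lower was kept in all 15 alternatives that gave a fold change. Anxa3 lost its call in 4 fits without 1 library, with the replicate block and at an adjusted p of 0.01. With the chromosome median removed, Anxa7 was at 0.25, Anxa11 at 0.49, Anxa8 at -1.78, Anxa5 at -0.51 and Anxa1 at -0.45, and Plau, on chromosome 14, turned to 0.039. At an adjusted p of at most 0.01, 1812 tested genes were lower and 1731 higher, and 5 annexins were lower and 0 higher. With calls held to a size of 1 or more on the log2 scale, 436 tested genes were lower and 275 higher, 2 annexins and 2 binding partners were lower, and 2 genes of the 6 lists were lower and 2 higher. The number of binding partners called higher was 0 to 1 over the fits without 1 library. With the mean transcript length, Anxa2 made up 36.9% of annexin TPM in sg-con and 24.3% in sg-kiaa1522, and Anxa8 5.10% and 1.81%. With CPM in place of TPM the values were 37.2% and 24.8% for Anxa2 and 7.0% and 2.51% for Anxa8. By mean transcript length, Anxa3 was above Anxa2 in sg-kiaa1522.

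Replicate numbers did not pair the libraries: after subtraction of the group mean, libraries that share a number correlated across genes at -0.21, -0.051 and -0.17. With the replicate block, Anxa8 was at -2.16, Anxa2 at -1.27, S100a10 at -0.94 (adjusted p = 0.0027, edgeR) and S100a4 at -2.08 (adjusted p = 0.0011), and 5 annexins and 5 binding partners were called lower. Plau lost its call under the block (adjusted p = 0.070). With 3 libraries per group, the smallest annexin differences, those of Anxa4, Anxa7 and Anxa11, were within 2 standard errors of 0.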
